A study of Homo sapiens with 4 samples.

Results

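Transcripts of 38 genes of glycolysis and the response to low oxygen were followed across YAP/TAZ knockdown and cyclic AMP treatment in the KGN line, which was established from a human granulosa cell tumour. The genes were chosen by symbol from a fixed list: 20 glycolytic enzymes and their regulators, 3 glucose or lactate transporters, 4 hypoxia factors and oxygen sensors, and 11 targets of the hypoxia-inducible factors (HIF) outside glycolysis. That list was made with earlier results of these data known. Probe sets with 1 gene symbol measured 36 of the 38, and CA9 and SLC16A3 were not analysed here. All 36 lay above the floor set for low intensities (62.6) on at least 1 array and 34 on all 4, and they are part of 14361 genes compared of 19775 measured. The exceptions were ALDOC and EGLN3, whose probe sets used here were below the floor on 3 of the 4 arrays.

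The study measured 1 Affymetrix microarray for each of 4 groups: cells given YAP and TAZ siRNAs at 5 nM each (siYT), cells given control siRNA at 10 nM (siNC), and the same siRNAs followed by the cyclic AMP analogue 8Br-cAMP at 0.5 mM for 24 h (siYT+8Br-cAMP and siNC+8Br-cAMP). Medium with or without the analogue was added 48 h after transfection, so all arrays share that interval and differ in siRNA, analogue or both. The sample annotation used here does not give whether the cultures were transfected together. With 1 array per group no difference has a replicate check, no p-value is given, and the number of arrays limits the precision. Values are linear intensities as deposited, differences are of log2 intensity, and the threshold for calling a difference was 2-fold, or log2 1.

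Glycolysis splits glucose into pyruvate, and lactate dehydrogenase can turn that pyruvate into lactate when respiration is limited. In low oxygen the HIF alpha subunits, encoded by HIF1A and EPAS1, escape the prolyl hydroxylases EGLN1 and EGLN3, pair with ARNT and activate genes for glucose uptake, glycolysis, pH control, mitophagy and vessel growth. HIF binds the short core letters ACGTG or GCGTG. YAP and TAZ are co-activators that work mainly through TEAD factors and are restrained by the Hippo pathway, and the granulosa layer of the ovarian follicle has no blood vessels before ovulation.

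The siRNA targets were lower on the knockdown arrays: YAP1 read 1295 in siYT against 4915 in siNC, and 1412 in siYT+8Br-cAMP against 4772 in siNC+8Br-cAMP. WWTR1, the gene for TAZ, read 1028 in siYT against 5366 in siNC, and 1154 in siYT+8Br-cAMP against 7048 in siNC+8Br-cAMP. Of 10 granulosa markers, 7 were above the floor on all 4 arrays, among them FOXL2 and GATA4, while NR5A1, FSHR and AMHR2 were below it on all. None of the 12 epithelial, endothelial and leukocyte markers was above the floor on all 4 arrays, and over the arrays their summed intensities ranged from 77.8 to 246, from 212 to 690 and from 168 to 351. Their part in the results was not tested. The siYT+8Br-cAMP array stood apart in RNA quality controls: its 3' to 5' signal ratio was 1.12 for GAPDH and 1.35 for ACTB, against 0.889 to 0.963 and 1.07 to 1.14 on the other 3 arrays. Probe sets that read the same gene (7501 probe sets of 3019 genes) scattered around its log2 difference with an SD of 0.39 for siYT minus siNC, while for siYT+8Br-cAMP minus siNC+8Br-cAMP this SD was 0.54. It covers measurement within arrays only, not variation between cultures.

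A group of 4 HIF-responsive genes was at least 2-fold higher after YAP/TAZ knockdown both without and with 8Br-cAMP: NDRG1, HILPDA, CA12 and PFKFB3. A single member, EPAS1, was at least 2-fold lower in both. The core enzymes that carry glucose to lactate differed little in siYT minus siNC, with a median log2 difference of 0.14 over 17 genes, whereas the 10 measured HIF targets outside glycolysis had a median of 0.91. With 8Br-cAMP these medians were 0.43 and 0.97. Among all genes compared, 2.45% were at least 2-fold higher in both comparisons and 2.87% lower in both, while 4 of the 36 members (11.1%) were higher in both and 1 (2.78%) lower. Because the members were chosen with earlier results of these data known, the gap between these shares is a description only. The comparisons without and with 8Br-cAMP share no array.

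NDRG1, a stress-induced differentiation gene, read 14104 in siYT against 3419 in siNC, and 24835 in siYT+8Br-cAMP against 5161 in siNC+8Br-cAMP. The single NDRG1 probe set was thus 4.12-fold higher after knockdown in untreated cells and 4.81-fold higher in treated ones. Both knockdown arrays lay above both control arrays.

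HILPDA, which promotes lipid droplet storage in low oxygen, read 3221 in siYT against 782 in siNC, and 6772 in siYT+8Br-cAMP against 742 in siNC+8Br-cAMP. These are differences of 4.12-fold and 9.13-fold, on the log2 scale 2.04 and 3.19. The other HILPDA probe set gave log2 2.26 and 2.52, so the direction was the same and the size with 8Br-cAMP was smaller by that probe set.

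CA12 encodes a membrane carbonic anhydrase that helps control pH outside the cell. It read 8942 in siYT against 2797 in siNC, and 10893 in siYT+8Br-cAMP against 3165 in siNC+8Br-cAMP, which is 3.20-fold and 3.44-fold higher. The 5 CA12 probe sets above 4 times the floor were all higher in both comparisons, by log2 1.51 to 1.98 without and 1.22 to 1.78 with 8Br-cAMP. The 2 other CA12 probe sets were near or below the floor, and averaging all 7 left log2 0.98 with 8Br-cAMP, just under 2-fold.

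PFKFB3 makes fructose 2,6-bisphosphate, the activator of phosphofructokinase, and favours glycolysis more than its paralogs do. It read 3953 in siYT against 1135 in siNC, and 3321 in siYT+8Br-cAMP against 537 in siNC+8Br-cAMP. The difference was 3.48-fold in untreated and 6.18-fold in treated cells, from 1 probe set, of the type that can read several transcripts. The larger fold with the analogue goes with a lower control value, not with a higher knockdown value.

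**Figure D1:**
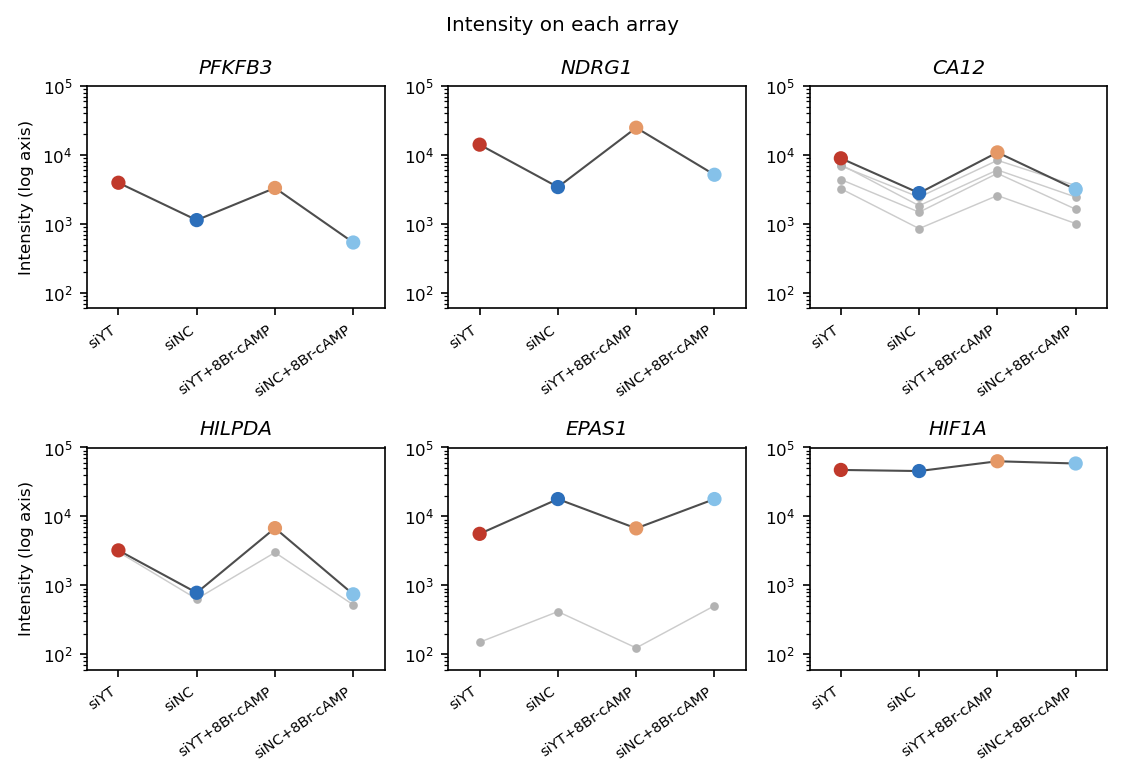
Intensity (log axis) of 6 genes on each of the 4 arrays, 1 array per group: coloured points are the probe set used for the gene, grey points its other probe sets above the floor on all arrays. NDRG1, HILPDA, CA12 and PFKFB3 are higher on both siYT arrays, EPAS1 is lower on both, and HIF1A lies between 45555 and 63155 on all 4.

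Among the hypoxia factors, EPAS1, which encodes HIF-2 alpha, read 5595 in siYT against 17870 in siNC, and 6714 in siYT+8Br-cAMP against 17878 in siNC+8Br-cAMP. Knockdown went with a 3.19-fold lower value in untreated cells and a 2.66-fold lower one in treated cells. A weaker EPAS1 probe set was lower as well, with log2 differences of -1.47 and -2.03, and the remaining one was below the floor on all arrays. HIF1A, for the alpha subunit of HIF-1, read 47266 in siYT against 45555 in siNC, and 63155 in siYT+8Br-cAMP against 58596 in siNC+8Br-cAMP, log2 differences of 0.05 and 0.11. The 2 alpha subunits thus differed in their knockdown values at the transcript level, and protein was not measured. The oxygen sensor EGLN1 differed by 0.16 and -0.44. EGLN3, a sensor that is itself a HIF target, was near or below the floor throughout: the probe set used was above it in siYT+8Br-cAMP only, at 101 against 38 in siNC+8Br-cAMP, and the other in siYT only, at 64.9 against 36.8 in siNC.

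HIF targets outside glycolysis were higher in siYT than in siNC for 10 of 10 measured members, by log2 0.13 to 2.04, and 4 of them reached 2-fold. By any amount, 6909 of all 14361 genes compared and 12 of 17 core enzymes were higher. Over all 36 members 7 were at least 2-fold higher (19.4%, against 7.40% of all genes compared) and 2 lower (5.56%, against 6.16%). The HIF target at 2-fold beside NDRG1, HILPDA and CA12 was BNIP3, a mitophagy receptor, which read 18080 in siYT against 8400 in siNC, 2.15-fold higher, and log2 1.22 by its other probe set. ANKRD37 (log2 0.96), the histone demethylase KDM3A (0.79), the mTOR inhibitor DDIT4 (0.78), the MYC antagonist MXI1 (0.87) and the mitophagy receptor BNIP3L (0.50) were higher without reaching 2-fold. The vasodilator peptide ADM was nearly level, at 9966 in siYT against 9108 in siNC.

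With 8Br-cAMP present the same 10 genes spread apart. At least 2-fold higher were 5 of the 10: NDRG1, HILPDA, CA12, ADM and MXI1. Over all 36 members the count was 7 higher (19.4%, against 6.88% of all genes) and 1 lower (2.78%, against 9.66%). ADM read 14375 in siYT+8Br-cAMP against 4051 in siNC+8Br-cAMP, 3.55-fold higher, and MXI1 8040 against 3019, 2.66-fold higher. BNIP3 was 1.44-fold higher, and DDIT4 was nearly level with a log2 difference of 0.08. BNIP3L, KDM3A and ANKRD37 lay below their controls, at log2 -0.68, -0.35 and -0.14. The BNIP3L value depends on the probe set, since the other one, also well above the floor, gave 1.23.

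**Figure D2:**
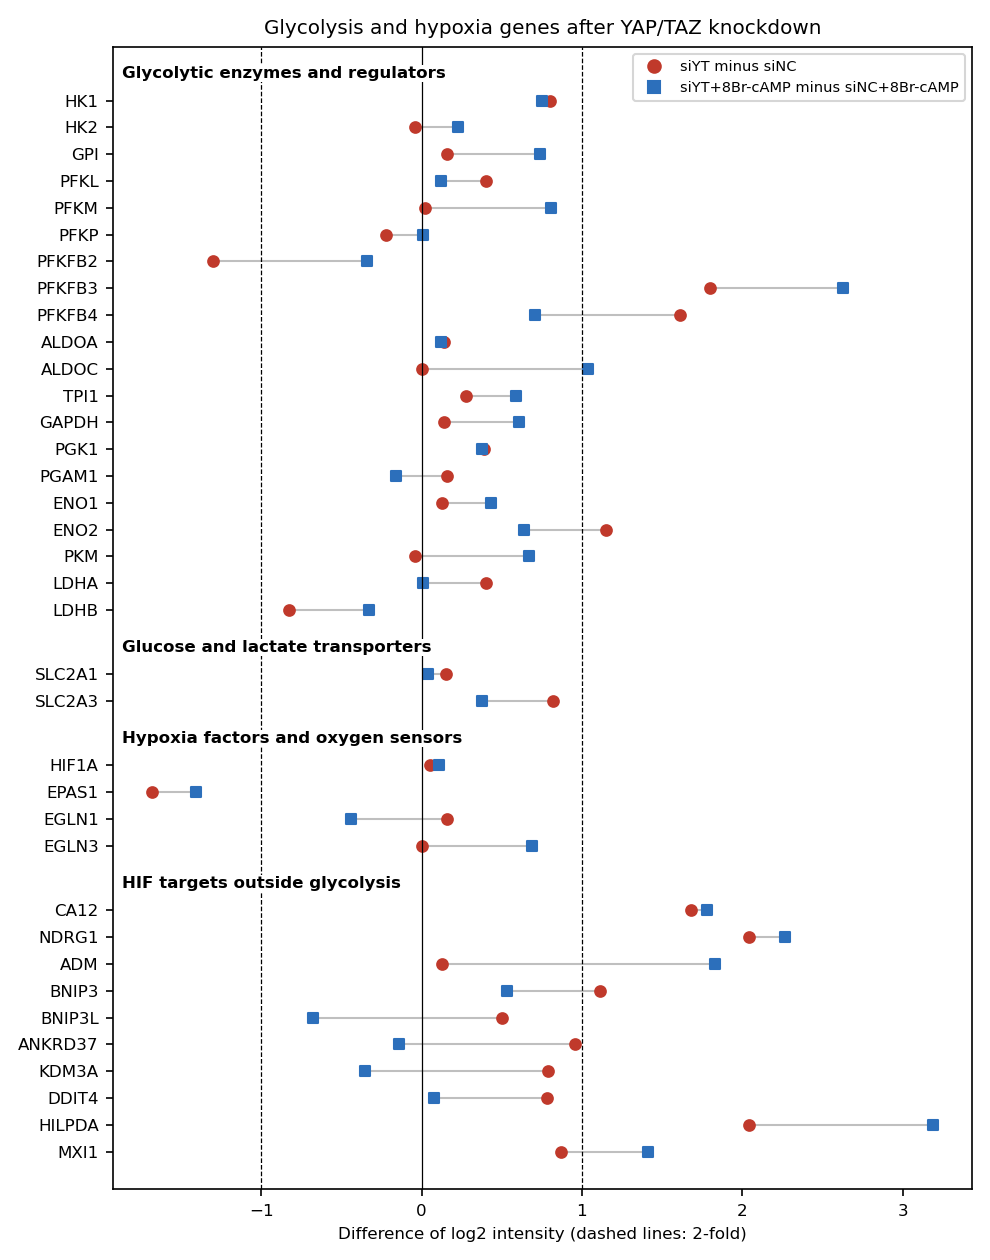
Knockdown difference of log2 intensity for the 36 measured genes by role: circles are siYT minus siNC, squares siYT+8Br-cAMP minus siNC+8Br-cAMP, and dashed lines mark 2-fold. Most core enzymes lie between the dashed lines with both symbols, while NDRG1, HILPDA, CA12 and PFKFB3 lie right of the line with both and EPAS1 lies left of it with both.

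In the order of the pathway, glucose uptake and the first steps came out as follows. The glucose transporter SLC2A1 differed by log2 0.15 and 0.04 after knockdown, without and with 8Br-cAMP. The transporter SLC2A3 read 7875 in siYT against 4450 in siNC, a log2 difference of 0.82, and its other probe sets gave 1.29 and 1.21, which put the average of the 3 at 1.11. With 8Br-cAMP the 3 SLC2A3 probe sets gave 0.38, -0.06 and -0.40 and did not share a direction. Hexokinase 1 (HK1) was higher by a similar amount both times, 8082 in siYT against 4646 in siNC and 7744 in siYT+8Br-cAMP against 4608 in siNC+8Br-cAMP, which is 1.74-fold and 1.68-fold. Its inducible paralog HK2 differed by -0.04 and 0.23 on its brightest probe set, but the direction depends on the probe set. The other 2, much weaker, were lower after knockdown: one read 87.6 in siYT against 293 in siNC, a log2 difference of -1.74, and -0.55 with 8Br-cAMP, and the other gave -2.19 and -0.59. Averaging all 3 put HK2 at -1.33 without 8Br-cAMP, past 2-fold, and at -0.30 with it. The isomerase GPI differed by 0.16 and 0.74. Of the phosphofructokinase subunits, PFKL differed by 0.40 and 0.12, PFKM by 0.02 and 0.81, and PFKP by -0.22 and 0.01.

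The 3 PFKFB paralogs, which set the level of fructose 2,6-bisphosphate, did not move together. PFKFB4 read 1052 in siYT against 344 in siNC, 3.06-fold higher, and 916 in siYT+8Br-cAMP against 560 in siNC+8Br-cAMP, 1.64-fold higher. Its weaker probe set gave log2 0.93 and 1.83, so PFKFB4 was higher by both but reached 2-fold in different comparisons. PFKFB2 went the other way, with 184 in siYT against 453 in siNC, 2.46-fold lower, and 287 in siYT+8Br-cAMP against 362 in siNC+8Br-cAMP, 1.26-fold lower. The 3 other PFKFB2 probe sets were near or below the floor, and averaging all of them left a log2 difference of -0.32 without 8Br-cAMP.

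In the later steps of the pathway most enzymes differed little without 8Br-cAMP, and several were higher with it. The aldolase ALDOA differed by 0.14 and 0.12, the isomerase TPI1 by 0.28 and 0.59, and the mutase PGAM1 by 0.16 and -0.16. The kinase PGK1 differed by 0.39 and 0.38 on its brightest probe set, but its size depends on the probe set. Its other probe sets gave 0.57 to 2.76 without and -0.60 to 1.2 with 8Br-cAMP. The largest came from a weak one, at 503 in siYT against 74.2 in siNC. Averaging all PGK1 probe sets gave 0.95 and 0.19. ENO1, the common enolase, differed by 0.13 and 0.43, whereas ENO2, the neuronal enolase and a HIF target, read 4356 in siYT against 1962 in siNC, 2.22-fold higher, and 3794 in siYT+8Br-cAMP against 2442 in siNC+8Br-cAMP, 1.55-fold higher. Pyruvate kinase (PKM) differed by -0.04 and 0.67. LDHA and LDHB, whose subunits favour lactate and pyruvate formation, differed in direction without the analogue: LDHA read 54163 in siYT against 41082 in siNC (log2 0.40), and LDHB read 17328 in siYT against 30797 in siNC (log2 -0.83, and -0.85 by its other probe set). With 8Br-cAMP, LDHA differed by 0.01, and the 2 LDHB probe sets gave -0.33 and 0.41.

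GAPDH, often taken as a constant reference, was read by 6 probe sets. It differed by log2 0.06 to 0.26 between siYT and siNC and by 0.53 to 0.85 between siYT+8Br-cAMP and siNC+8Br-cAMP. The probe set used here read 113505 in siYT+8Br-cAMP against 74396 in siNC+8Br-cAMP, and 58670 in siYT against 53321 in siNC. The higher value was on the array whose 3' to 5' ratios stand apart, and the part of RNA quality in it was not tested.

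Of the 20 glycolytic enzymes and regulators, 3 were at least 2-fold higher in siYT minus siNC (PFKFB3, PFKFB4 and ENO2, against 7.40% of all genes) and 1 was lower (PFKFB2, against 6.16%). With 8Br-cAMP, 2 were higher, PFKFB3 and ALDOC (10.0% of the 20, against 6.88%), and 0 were lower (against 9.66%). Apart from the 3 higher without 8Br-cAMP, these shares are near or below those of all genes. ALDOC read 129 in siYT+8Br-cAMP against 8.86 in siNC+8Br-cAMP, below the floor, so it is at least 2.06-fold higher, and at least log2 0.04 with the floor doubled. The 17 core enzymes ranged from log2 -0.83 to 1.15 without and from -0.33 to 1.04 with 8Br-cAMP, and their median was 0.14 and 0.43, against 0.00 over all genes in each. With 8Br-cAMP 15 of the 17 were higher by any amount, against 6730 of 14361 genes. At least 1.5-fold higher were 2 core enzymes without and 8 with 8Br-cAMP, against 17.9% of all genes in each. Of the 10 HIF targets outside glycolysis, 8 and 5 were. In bulk RNA a lower share of cells expressing a gene and less RNA per cell cannot be told apart.

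**Figure D3:**
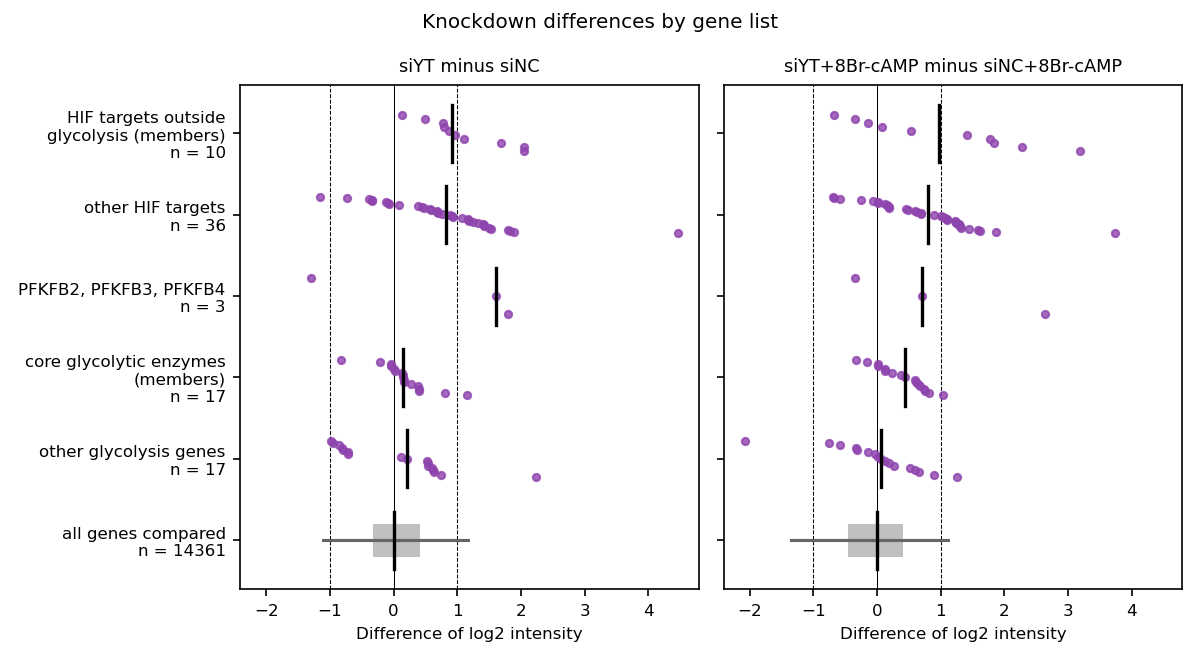
Knockdown differences of log2 intensity for gene lists, without 8Br-cAMP on the left and with it on the right, siYT minus siNC in each: points are genes, thick bars medians, and the grey box and line give the middle 50% and 90% of all 14361 genes. Both lists of HIF targets have medians between 0.80 and 0.97, while core enzymes have medians of 0.14 and 0.43.

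A further list held HIF targets that are not among the 38. Of its 36 genes compared, 13 reached 2-fold above control siRNA both without and with 8Br-cAMP (36.1%, against 2.45% of all genes) and 0 lay below it at 2-fold both times, and the list medians were log2 0.82 and 0.80. ANGPTL4, whose product blocks lipoprotein lipase, read 2325 in siYT against 106 in siNC (22.0-fold), and 3735 in siYT+8Br-cAMP against 282 in siNC+8Br-cAMP (13.2-fold). Its siNC value is not far above the floor of 62.6, and only the brighter of its 2 probe sets is given. VEGFA, the main vessel growth factor, was 2.64-fold and 3.63-fold higher. The collagen-modifying enzymes PLOD1 (2.67-fold and 3.05-fold), PLOD2 (2.80-fold and 2.50-fold) and P4HA1 (2.29-fold and 2.06-fold) were higher, the circadian repressor BHLHE40 was 3.49-fold and 2.45-fold higher, and PPP1R3C, which steers glycogen synthesis, 2.36-fold and 2.43-fold. The rest were PPFIA4, FAM13A, INSIG2, ERRFI1, WSB1 and STC1, between 2.15-fold and 3.70-fold. Not all targets followed: LOX differed by -0.34 and 0.13, P4HA2 by -0.39 and -0.59, and STC2 by -1.15 and 0.19. Many of these genes answer to other signals as well, and the list was written with earlier results of these data known.

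The promoter windows of 33 of the 38 genes were searched for the HIF core letters, since several core enzymes that stayed under 2-fold are known HIF targets as well. The windows come from RefSeq (GRCh38.p14) and run from 250 bases before to 50 after a transcription start. BNIP3L, HILPDA, NDRG1, PFKFB2 and SLC2A3 were not matched. Shown are CA12 (chr15:63381797-63382096, minus strand), both PFKFB3 starts (chr10:6144671-6144970 and chr10:6202682-6202981, plus strand) and EPAS1 (chr2:46297157-46297456, plus strand), which reached 2-fold in both comparisons, and for contrast PGK1 (chrX:78103998-78104297, plus strand) and 1 of 2 LDHA starts (chr11:18394313-18394612, plus strand), which did not by the probe set used. A weak PGK1 probe set did reach it, with log2 2.76 and 1.2. Capitals mark ACGTG or GCGTG on either strand.
CA12: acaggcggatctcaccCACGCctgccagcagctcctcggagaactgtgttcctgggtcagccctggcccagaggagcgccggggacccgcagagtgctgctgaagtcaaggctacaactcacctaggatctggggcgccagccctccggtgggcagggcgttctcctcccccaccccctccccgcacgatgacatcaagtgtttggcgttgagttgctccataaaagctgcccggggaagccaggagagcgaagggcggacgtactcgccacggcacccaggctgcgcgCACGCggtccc
PFKFB3 upstream start: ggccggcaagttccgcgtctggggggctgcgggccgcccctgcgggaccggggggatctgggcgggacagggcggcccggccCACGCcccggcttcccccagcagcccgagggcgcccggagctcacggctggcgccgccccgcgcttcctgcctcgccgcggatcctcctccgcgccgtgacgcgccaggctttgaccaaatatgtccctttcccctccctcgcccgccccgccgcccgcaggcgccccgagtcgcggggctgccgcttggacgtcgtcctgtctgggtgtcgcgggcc
PFKFB3 downstream start: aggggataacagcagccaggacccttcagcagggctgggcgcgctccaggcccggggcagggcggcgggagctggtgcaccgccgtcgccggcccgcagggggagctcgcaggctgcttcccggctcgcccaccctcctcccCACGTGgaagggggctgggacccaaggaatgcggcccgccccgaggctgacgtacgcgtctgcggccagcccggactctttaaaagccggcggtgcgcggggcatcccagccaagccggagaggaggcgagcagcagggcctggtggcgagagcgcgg
EPAS1: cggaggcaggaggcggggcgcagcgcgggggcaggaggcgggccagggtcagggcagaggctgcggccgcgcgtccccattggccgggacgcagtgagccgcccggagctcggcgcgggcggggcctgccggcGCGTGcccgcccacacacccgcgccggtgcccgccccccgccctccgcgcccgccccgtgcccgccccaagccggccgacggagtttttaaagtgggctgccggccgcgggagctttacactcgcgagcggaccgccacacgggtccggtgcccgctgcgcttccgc
PGK1: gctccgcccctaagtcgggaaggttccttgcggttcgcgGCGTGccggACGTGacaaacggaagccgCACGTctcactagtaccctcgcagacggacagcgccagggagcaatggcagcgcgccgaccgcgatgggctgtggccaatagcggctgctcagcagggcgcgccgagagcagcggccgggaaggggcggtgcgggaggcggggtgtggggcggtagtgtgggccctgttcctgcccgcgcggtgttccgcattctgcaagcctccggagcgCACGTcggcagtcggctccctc
LDHA: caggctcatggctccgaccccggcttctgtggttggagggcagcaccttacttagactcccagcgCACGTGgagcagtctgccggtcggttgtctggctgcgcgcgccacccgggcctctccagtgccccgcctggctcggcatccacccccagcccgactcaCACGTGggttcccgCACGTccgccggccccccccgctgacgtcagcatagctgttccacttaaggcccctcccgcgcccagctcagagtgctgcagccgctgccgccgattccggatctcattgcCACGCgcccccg

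The PGK1 window held 4 such cores and the LDHA window 6, counting both strands, while the CA12 window held 2 and the EPAS1 window 1. The other LDHA window, not shown, held 1. The upstream PFKFB3 window held 1, and the downstream one held a CACGTG, which reads ACGTG on both strands and counts as 2. Over the members' 62 windows, 43 (69.4%) held ACGTG or GCGTG, against 48.4% of all 35116 windows. Counted by gene, 16 of 17 core enzymes (94.1%) and 8 of 8 HIF targets outside glycolysis with a window held a core in at least 1 window, against 52.4% of all genes. By window the shares differed, with 62.2% of 37 for core enzymes and 90.9% of 11 for HIF targets. Some enzymes have many starts (7 windows each for HK1 and PFKM), and NDRG1, HILPDA and BNIP3L are missing from these counts. CA9 and SLC16A3 have windows but no expression value here. CA9 is counted among the 8 HIF targets, and both genes among the 62 windows. Any part of the letters in the knockdown values was not tested. The TEAD letters GGAATG were in 7 of the 62 windows (11.3%), against 14.0% of all, and 1 was the downstream PFKFB3 start. The cyclic AMP response element TGACGTCA was in 1 window, that of LDHA (1.61%, against 1.85% of all). Its first 5 letters TGACG, which can overlap ACGTG, were in 13 (21.0%, against 24.6% of all). The matches describe letters, not binding.

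With 8Br-cAMP none of the 36 members reached 2-fold in the same direction in both comparisons, siYT+8Br-cAMP minus siYT and siNC+8Br-cAMP minus siNC, where 1.48% of all genes were higher in both and 2.11% lower. The member medians were log2 0.22 and 0.14. These 2 comparisons share no array with each other, but each shares an array with each knockdown comparison. SLC2A1 came close to 2-fold lower in both, with 277 in siYT+8Br-cAMP against 541 in siYT and 269 in siNC+8Br-cAMP against 487 in siNC, log2 -0.97 and -0.86. HK2 was lower too, with log2 -0.51 and -0.79, and averaging its 3 probe sets gave -0.32 and -1.35, the second past 2-fold. NDRG1 was higher by 0.82 and 0.59. PGK1 was 0.44 higher both times by the probe set used, but after knockdown other PGK1 probe sets ran from -0.96 to 0.76 and the average of all was -0.11. Among 13 members with several well-measured probe sets, all probe sets of a gene lay on the same side of 0 for 4 members in siYT+8Br-cAMP minus siYT and for 9 in siNC+8Br-cAMP minus siNC.

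In control cells 8Br-cAMP went with lower PFKFB3 and ADM and higher ANKRD37. PFKFB3 read 537 in siNC+8Br-cAMP against 1135 in siNC, 2.11-fold lower, and ADM 4051 against 9108, 2.25-fold lower, while 5.26% of all genes were 2-fold lower. ANKRD37 read 1100 in siNC+8Br-cAMP against 525 in siNC, 2.10-fold higher, with 4.37% of all genes higher. After knockdown the same genes differed by log2 -0.25, 0.53 and -0.03. The 3 members at least 2-fold higher in siYT+8Br-cAMP minus siYT were PFKM (2.08-fold), HILPDA (2.10-fold) and ALDOC, the last from below the floor, against 5.10% of all genes. HILPDA was level by its other probe set (log2 -0.03), and PFKM fell just under 2-fold after quantile normalization (log2 0.99). GAPDH was just under 2-fold higher in siYT+8Br-cAMP minus siYT by the probe set used (log2 0.95). Its 6 probe sets ran from 0.70 to 1.25 there, and their average was 1.01. Without control probe sets the count of members higher was 4. BNIP3L was 2.07-fold lower, against 10.0% of all genes, but 0.41 higher on the log2 scale by its other probe set.

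**Figure D4:**
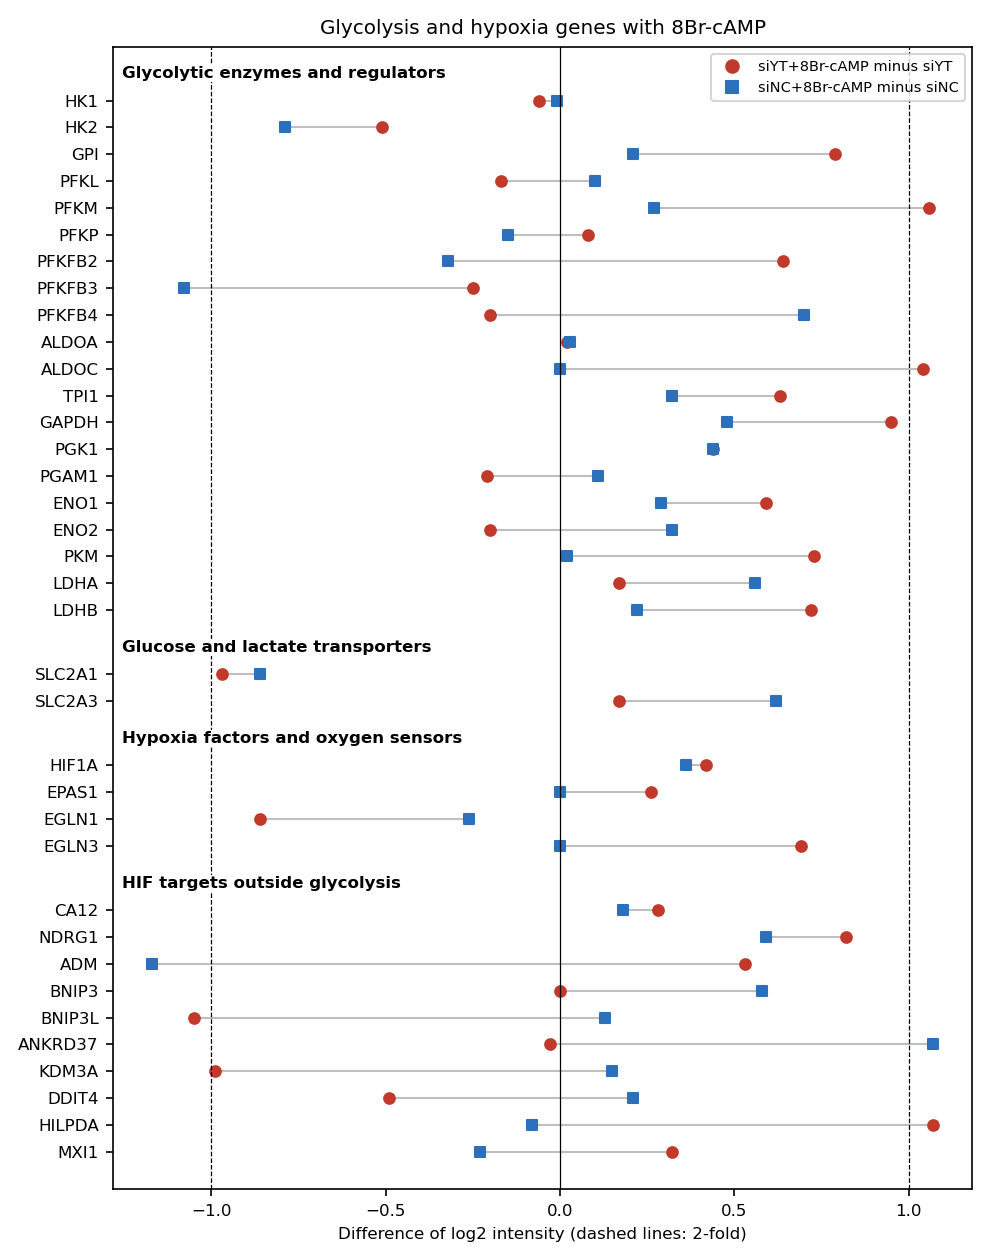
Difference of log2 intensity with 8Br-cAMP for the 36 measured genes by role: circles are siYT+8Br-cAMP minus siYT, squares siNC+8Br-cAMP minus siNC, and dashed lines mark 2-fold. No gene has both symbols outside the dashed lines on the same side, and SLC2A1 comes closest on the left.

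The difference of differences, the knockdown difference with minus that without 8Br-cAMP, uses all 4 arrays. It was at least log2 1 for 3 members (8.33%, against 5.47% of all genes) and at most -1 for 3 (8.33%, against 9.71%), shares near those of all genes. ADM had the largest value, 1.70, from a level knockdown difference without and a 3.55-fold one with the analogue. HILPDA had 1.15, but 0.26 by its other probe set, and ALDOC 1.04 from values near the floor. BNIP3L (-1.18), KDM3A (-1.14) and ANKRD37 (-1.10) were on the negative side, and the other BNIP3L probe set gave 0.49. Averaging all probe sets of a gene brought these 3 to -0.35, -0.57 and -0.55. The same averaging put HK2 at 1.02 and SLC2A3 at -1.13. SLC2A3 had -0.45 by the probe set used and -1.35 and -1.61 by its others. The SD between probe sets of 1 gene was 0.60 for this quantity.

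A threshold of 1.5-fold, a wider net, gave 13 members higher (against 17.9% of all genes) and 3 lower (against 15.2%) in siYT minus siNC. In siYT+8Br-cAMP minus siNC+8Br-cAMP it gave 16 higher (against 17.9% of all genes) and 2 lower (against 20.2%). In both of these, 8 members were higher (against 7.78% of all genes), with HK1, PFKFB4, ENO2 and MXI1 joining NDRG1, HILPDA, CA12 and PFKFB3, and EPAS1 stayed the 1 member lower (against 7.90%). For 8Br-cAMP after knockdown, 12 members were higher (against 15.1% of all genes) and 4 lower (against 21.5%), and with control siRNA 4 were higher (against 12.8%) and 4 lower (against 14.2%). NDRG1 was higher in both of those (against 4.84% of all genes) and SLC2A1 lower (against 6.79%). In the difference of differences 8 members were on the positive side (against 15.5% of all genes) and 6 on the negative (against 21.0%).

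Probe sets of 1 gene agreed better without than with 8Br-cAMP. Of 13 members with 2 or more probe sets above 4 times the floor on every array (40 probe sets), 13 had all probe sets on the same side of 0 in siYT minus siNC, and 7 did in siYT+8Br-cAMP minus siNC+8Br-cAMP. The median range within a gene was log2 0.22 and 0.56. CA12, HILPDA, GAPDH and BNIP3 were among those that agreed in both, and PGK1, ENO1, LDHB, SLC2A3 and BNIP3L were among those that did not with 8Br-cAMP. PGK1, for example, ranged from -0.60 to 0.58. The disagreement goes with the array whose 3' to 5' ratios stand apart, and its part in the values was not tested.

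**Figure D5:**
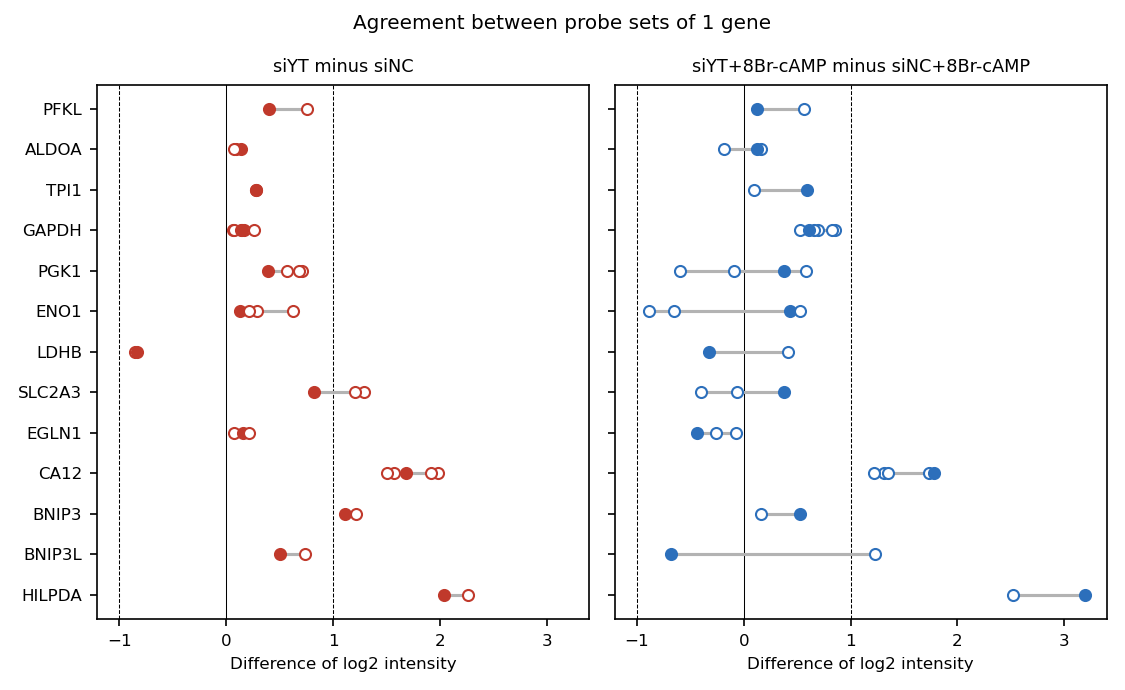
Knockdown difference of log2 intensity for each probe set of the 13 genes with several probe sets above 4 times the floor: filled points are the probe set used, open points the others, with siYT minus siNC in the left panel, and in the right panel the same difference with 8Br-cAMP. The points of a gene lie close together on the left, while on the right those of PGK1, ENO1 and BNIP3L straddle 0.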

How the data were processed

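RNA of 4 KGN samples was amplified from the 3' end by in vitro transcription, as the labels' protocols state, and hybridised to 1 array each. The deposited values are intensity values per probe set, and the submitters' processing notes name RMA and Affymetrix Expression Console without a version. They are linear, ran down to 0.081 and had a 2% trimmed mean of 500.1 on every array, unlike RMA output, so the background correction and summary behind them stay unknown. Of 54675 probe sets, the 41097 that the platform annotation gives a single symbol were used, and 1801 with several and 11777 with none were left out. Each gene was read from its brightest probe set by mean intensity. Values under the median of all values, 62.6, were set to it before log2, which the design had planned for a linear table. Folds against the floor are lower bounds. Scripts ran in Python 3.11.15 and R 4.3.3 with limma 3.58.1, which made the alternative normalizations, and the 2-fold rule was tested on simulated data. The simulated noise was below the SD between probe sets of 1 gene (0.39 and 0.54 for the knockdown differences). It held no variation between cultures, so that test cannot tell how the rule performs on these arrays. The naming rule took all members, and of each other list the genes at 2-fold the same way in both knockdown or both 8Br-cAMP comparisons, at most 10 each by the smaller difference. Outside that rule, P4HA1, WSB1, LOX, P4HA2, STC2, PDHB, MPC2, ARNT, VHL and CITED2 were named after their values were seen. The members and lists were chosen with earlier results of these data known. The marker lists served only to check the cells. Alternatives changed the floor, the level filter, the probe set used, the normalization and the threshold.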

Additional observations from a re-analysis of the deposited data

How the results depend on the processing

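Under 11 alternatives, 8 planned and 3 added after seeing the data (the probe set with the highest mean of log2 values, no control probe sets, and differences centred on the median of all genes), 137 of the counts of members at 2-fold stayed within 1.5 times and 17 moved. EPAS1 was the 1 member lower in both knockdown comparisons under every alternative. The members higher in both were PFKFB3, CA12, NDRG1 and HILPDA under every 2-fold alternative but the mean over probe sets, where PFKFB4 took the place of CA12 (0.98 with 8Br-cAMP). NDRG1 and PFKFB3 have 1 probe set each, far above the floor. Alternatives of floor, level filter and probe set therefore could not change their values. The tallies of counts and values that stayed include such fixed outcomes, so they overstate how far the results were put to the test. A threshold of 1.5-fold gave 8 members higher in both knockdown comparisons, 13 higher in siYT minus siNC, and, in the treated pair, 16 higher and 2 lower. For 8Br-cAMP it gave 12 higher and 4 lower after knockdown, 4 higher and 4 lower with control siRNA, and 1 higher and 1 lower in both, and for the difference of differences 8 and 6. The mean over all probe sets gave 0 members higher with 8Br-cAMP in control cells, 0 lower after knockdown and 1 with a negative difference of differences. A filter at the 75th percentile (388.7) left 1 lower without 8Br-cAMP, since it removed PFKFB2. Without probe sets shared between transcripts, 2 were lower with 8Br-cAMP after knockdown, and HILPDA there turned to log2 -0.03. The 30 single differences at 2-fold were recomputed as well: 278 of these recomputed values stayed at 2-fold, 17 fell under it, 9 of those under the mean over probe sets, and 1 turned sign. The cause was not tested otherwise. No paired analysis was possible because each group holds 1 array. Genes near the floor are limited by signal over background.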

Other observations

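Genes around pyruvate entry into mitochondria, outside the 38, differed one by one. Of 17 further glycolysis and pyruvate genes compared, PDK3, a kinase that restrains pyruvate dehydrogenase, was at least 4.73-fold higher in siYT (296) than in siNC (35.7, below the floor), and 2.39-fold higher in siYT+8Br-cAMP (301) than in siNC+8Br-cAMP (126). No other gene of this list reached 2-fold in the same direction after knockdown both without and with 8Br-cAMP. PDK3 is thus 1 of 17 (5.88%), where 2.45% of all genes were higher in both. The 2 subunits of the mitochondrial pyruvate carrier went opposite ways: MPC1 was higher by log2 0.74 and 0.89 after knockdown, without and with 8Br-cAMP, and MPC2 lower, with log2 -0.71 and -0.75. MPC1 alone in this list reached 2-fold with 8Br-cAMP both times, 2.42-fold higher after knockdown and 2.18-fold with control siRNA. That is 5.88% of the 17, where 1.48% of all genes were higher in both. The pyruvate dehydrogenase subunit PDHB read 2318 in siYT+8Br-cAMP against 9785 in siNC+8Br-cAMP, 4.22-fold lower, and 3213 in siYT against 5625 in siNC, 1.75-fold lower.

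Of 12 further hypoxia factors compared, 0 were at 2-fold in the same direction in both knockdown comparisons, where 2.45% of all genes were higher and 2.87% lower, so a count of 0 among 12 is near the share of all genes. ARNT, the partner of both HIF alpha subunits, differed by log2 0.61 and -0.07, and VHL, the ubiquitin ligase subunit that removes them, by 0.45 and -0.08. CITED2, an inhibitor of HIF, was 2.36-fold lower in siYT+8Br-cAMP than in siNC+8Br-cAMP and 1.30-fold lower in siYT than in siNC. The co-activator CREBBP was at least 2-fold lower with 8Br-cAMP in both comparisons, reading 94.5 in siYT+8Br-cAMP against 706 in siYT, and 137 in siNC+8Br-cAMP against 350 in siNC. Only the brightest of its 4 probe sets is given here, and 94.5 and 137 are not far above the floor of 62.6. CREBBP was 1 of the 12 (8.33%), where 2.11% of all genes were lower in both. Among further HIF targets, STC1, a secreted glycoprotein, was higher with 8Br-cAMP whichever siRNA was given, 2.16-fold after knockdown and 3.56-fold with control siRNA. DDIT3, a stress transcription factor, was lower in both, 3.47-fold and 8.07-fold. Each was 1 of 36 further targets (2.78%), near the 1.48% of all genes higher and 2.11% lower in both.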
